A study of Mus musculus with 24 samples.

Results

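The 9 genes described here act in triglyceride synthesis and glyceroneogenesis, in differentiating mouse brite adipocytes: Pck1, Gpd1, Gk, Gpam, Agpat2, Agpat9, Lpin1, Dgat1 and Dgat2. They were picked by gene symbol, as 9 of the 52089 symbols in the deposited table, and 71 of its 168326 transcript entries belong to them. For each symbol the RefSeq messenger RNA entry with the highest mean level was used. Gk stood in the table under its older symbol, Gyk, and Agpat9 is now named Gpat3 in RefSeq. The cells were primary preadipocytes from the stromal-vascular fraction of inguinal white fat of 129SvEv mice, and all of them received rosiglitazone, an agonist of PPARγ that induces browning. On the first day of differentiation they were reverse transfected with 50 nM of an LNA (locked nucleic acid) gapmer, a short antisense strand whose duplex with an RNA is cut by RNase H, and harvested 24 h or 72 h later. In the knockdown groups (KD) the gapmer matched Ctcflos, a long noncoding RNA, and in the control groups (NC) it had no target. There were 6 libraries of 3′ end reads in every one of the 4 combinations of treatment and time, and by the study's methods the mice were a few weeks old.

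White, brite and brown adipocytes store fatty acids as triglyceride, 3 acyl chains on a glycerol backbone. The backbone is supplied as glycerol 3-phosphate, which GPD1 makes from a glycolytic intermediate, glycerol kinase (Gk) from free glycerol, and glyceroneogenesis from pyruvate or lactate by way of cytosolic phosphoenolpyruvate carboxykinase (Pck1). Acyl chains are then added by glycerol-3-phosphate acyltransferases (Gpam, Agpat9) and by the lysophosphatidate acyltransferase Agpat2, phosphatidate is dephosphorylated by lipin 1 (Lpin1), and the last acyl chain is added by Dgat1 or Dgat2. Loss of AGPAT2 or of lipin 1 is known to cause lipodystrophy in mice, and Pck1 and Gk are known as genes that PPARγ agonists induce in adipocytes.

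Pck1 lies beside the gene of the targeted RNA. In the GENCODE annotation of GRCm38, Ctcflos runs on chromosome 2 from 173110818 to 173133204 on the plus strand and overlaps Ctcfl, from 173093609 to 173119525 on the minus strand. Pck1 begins 19.8 kb further along, at 173153048, and ends at 173159273 on the plus strand. The other genes lie elsewhere, Agpat2 on the same chromosome from 26593057 to 26604417 and the remaining 7 on chromosomes 5, 7, 12, 15, 19 and X, where chromosome 15 carries both Gpd1 and Dgat1.

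The promoters of Pck1, as the neighbour of the target, and of Gpam, Agpat2 and Lpin1, which were lower in KD at 72 h, are shown to give the sequence beside the expression values. RefSeq promoter sequences of GRCm38.p6 were found for 6 of the 9 genes. Each sequence is the 250 bases before a start site, 5′ to 3′ on the strand of the gene, and capitals mark the motifs described after them. The windows are chr2:173152823-173153072 on the plus strand for Pck1, chr19:55127239-55127488 on the minus strand for Gpam, chr2:26604418-26604667 on the minus strand for Agpat2 and chr12:16610967-16611216 on the minus strand for Lpin1. Distances are counted from the base after each window. The Pck1 window runs past the GENCODE start of 173153048, and 25 of its 250 bases lie in GENCODE exons. In RefSeq the Gpam gene reaches 55127319 and Lpin1 reaches 16653903. Part of the Gpam window and all of the Lpin1 window thus lie inside these RefSeq spans.
Pck1: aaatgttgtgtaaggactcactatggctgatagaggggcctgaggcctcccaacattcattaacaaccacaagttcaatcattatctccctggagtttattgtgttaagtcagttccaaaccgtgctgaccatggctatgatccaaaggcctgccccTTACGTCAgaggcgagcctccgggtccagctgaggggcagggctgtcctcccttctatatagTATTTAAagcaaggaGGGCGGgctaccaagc
Gpam: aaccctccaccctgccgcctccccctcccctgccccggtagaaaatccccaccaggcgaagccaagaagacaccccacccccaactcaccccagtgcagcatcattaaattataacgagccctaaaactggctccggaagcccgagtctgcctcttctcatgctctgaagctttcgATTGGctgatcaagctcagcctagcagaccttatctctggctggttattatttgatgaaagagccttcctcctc
Agpat2: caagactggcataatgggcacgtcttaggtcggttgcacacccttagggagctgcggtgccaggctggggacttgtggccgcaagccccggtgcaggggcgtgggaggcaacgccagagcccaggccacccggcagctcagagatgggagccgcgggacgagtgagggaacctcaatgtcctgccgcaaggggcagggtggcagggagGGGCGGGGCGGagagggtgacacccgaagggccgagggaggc
Lpin1: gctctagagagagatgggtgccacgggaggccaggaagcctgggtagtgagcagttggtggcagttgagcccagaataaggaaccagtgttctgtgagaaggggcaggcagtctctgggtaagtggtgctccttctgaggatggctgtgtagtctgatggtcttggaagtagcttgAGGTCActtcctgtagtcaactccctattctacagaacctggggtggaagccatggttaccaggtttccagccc

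8 motifs, chosen with these sequences in view, were searched on both strands. TTACGTCA, a form of the cAMP response element, lay 93 to 86 bases before the start of Pck1 and occurred in 0.447% of all 32851 promoter windows. The full palindrome TGACGTCA, found in 1.55% of windows, was in none of the windows of the 6 genes. TATTTAA, a changed TATA box found in 4.18% of windows, lay 31 to 25 bases before the Pck1 start used here and ran onto the GENCODE start. TATAAA, found in 12.4%, was in none of the windows. The GC box GGGCGG, found in 32.7% of windows, lay 16 to 11 bases before the Pck1 start used here, which is inside the gene by the GENCODE start. It lay in 2 overlapping copies from 42 to 32 bases before the Agpat2 start, and also in the windows of Gk, Agpat9 and the second start site of Gpam. The Agpat9 window lay wholly in GENCODE exons (250 of 250 bases), and that of the second Gpam start did in part (131 of 250). AGGTCA, found in 14% of windows, is the single copy of the site that nuclear receptors such as PPARγ bind as a repeat. It lay 74 to 69 bases before the Lpin1 start used here, inside the RefSeq span of that gene. It was also present in the partly exonic window of the second start site of Gpam. CCAAT, found in 33.8%, lay 74 to 70 bases before the Gpam start used here, which is inside the RefSeq span of that gene. The E-box CACGTG, found in 6.02%, was present before Gk. These matches are letters in a window and say nothing of the binding of a factor.

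Recovered totals ranged from 1391832 reads (KD 24 h replicate 6) to 5926375 (NC 72 h replicate 6), with a median of 4009998. The highest of these totals may be too high. In that library 19.8% of read numbers were odd, against 56.1% to 58.6% elsewhere. It held 83874 entries above 0, fewer than the 92152 of NC 24 h replicate 2, whose recovered total was 5423840. Replicates 2 and 3 of NC 72 h differed by less than sampling noise and were averaged into 1 sample, which left n = 5 there. The study calls the replicates of this experiment biological, the labels do not say whether they came from separate cultures or animals, and p-values measure the spread between these samples. Intervals cover that spread only, and levels are RPKM after a common scaling of the libraries, with RPKM dividing by transcript length although the reads came from 3′ ends. The target, Ctcflos (NR_040321), averaged 0.185 scaled RPKM in KD 24 h and 0.780 in NC 24 h, too low for the test at 24 h, and 0.202 against 1.31 at 72 h, where its log2 level fell by 2.49 ± 0.48 (SE, limma adjusted p = 0.0023). Ctcfl averaged at most 0.113 scaled RPKM in any group, too few reads to show a difference.

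The labelled cell type was checked by its markers. All 6 adipocyte markers were present, led by Fabp4 at a mean of 45318 scaled RPKM in NC 24 h, and all 5 brite or brown markers were detected. The summed level of the 6 adipocyte markers was lower in KD without overlap, 37159 to 49900 against 50448 to 52918 at 24 h and 26228 to 35775 against 36575 to 48250 at 72 h. Most of that sum was Fabp4, which by itself overlapped at 24 h and did not pass the test there (log2 difference -0.18, limma adjusted p = 0.25). Adipoq and Pparg, 2 of the 6, were lower at 24 h and Adipoq, Fabp4 and Lpl, 3 of the 6, at 72 h, by 0.44 to 0.96 on the log2 scale, and Plin1 and Cidec passed the test at neither time. Their part in the results on the 9 genes was not tested. In bulk RNA, fewer cells of a type and less RNA per cell cannot be told apart. The 5 brite or brown markers summed to 325 to 476 in KD and 457 to 888 in NC at 24 h, and to 378 to 728 and 1258 to 2120 at 72 h, separate at 72 h only. 4 of the 5 were lower at 24 h and 5 at 72 h, where Ucp1 fell by 2.37 ± 0.21 on the log2 scale (limma adjusted p = 8.2e-06).

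Markers of other cells the cultures could hold were present in part. The 8 markers of stromal progenitors summed to 482 to 984 in KD and 566 to 1135 in NC at 24 h, and to 854 to 1060 and 540 to 1285 at 72 h, with overlap at both times. Most of that sum was Ly6a, with group means of 607 to 740 scaled RPKM, and Col1a1, with 127 to 213, whereas Dpp4 averaged at most 0.0290. Of these 8 markers Cd34 rose at 72 h, from 0.415 to 1.81 scaled RPKM (log2 difference 2.02 ± 0.37, limma adjusted p = 0.0015), without overlap. The 5 macrophage markers summed to at most 29.7 in any sample, and their called members moved in opposite directions. Csf1r rose by 1.22 ± 0.27 at 24 h and 1.23 ± 0.25 at 72 h (limma adjusted p = 0.0061 and 0.0031), to 6.20 scaled RPKM in KD 72 h. Lyz2 fell by 3.68 ± 0.59 at 72 h (1.19 against 13.6 scaled RPKM, limma adjusted p = 0.00066), and Ptprc, the pan-leukocyte marker, averaged at most 0.0775. The 3 muscle markers summed to at most 34.5, nearly all of it Acta1, which fell by 1.75 ± 0.53 at 72 h (3.20 against 10.6, limma adjusted p = 0.028), while Ckm and Myh1 were near 0. The 4 endothelial markers summed to at most 1.59, and each was too low for the test. The part of these markers in the results on the 9 genes was not tested.

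At 24 h, 3 of the 9 genes were lower in KD than in NC and none was higher, against a background of 11.6% of all 51995 tested entries called lower, 11.1% called higher and 22.7% called in either direction. The genes were Gpd1, Lpin1 and Dgat1, at 59.7%, 65.9% and 65.9% of the NC level. At 72 h, 5 of the 9 were lower and none was higher, against 12% of 54436 entries called lower, 10.3% called higher and 22.3% in either direction. On the RPKM as deposited, whose median over all entries at 72 h was shifted by 0.25, 5.7% of entries were called lower and 24.2% higher, and of the 9 genes 4 were lower and 1, Gk, was higher. Agpat2 and Gpam joined the first 3, and the 5 genes stood at 42.2% to 67.4% of NC. The median log2 fold change of the 9 genes was -0.60 at 24 h and -0.57 at 72 h, where that of all entries was -0.01 and 0.01. Pck1, Gk, Agpat9 and Dgat2 passed the test at neither time. In each called case the KD and NC samples did not overlap, and in each other case they did. The share of all tested entries without overlap is not given here, so this only describes the 9 genes. All 9 genes passed the filter on low values at both times. They were chosen with earlier results of these data known, so their counts beside the background only describe them.

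**Figure D1:**
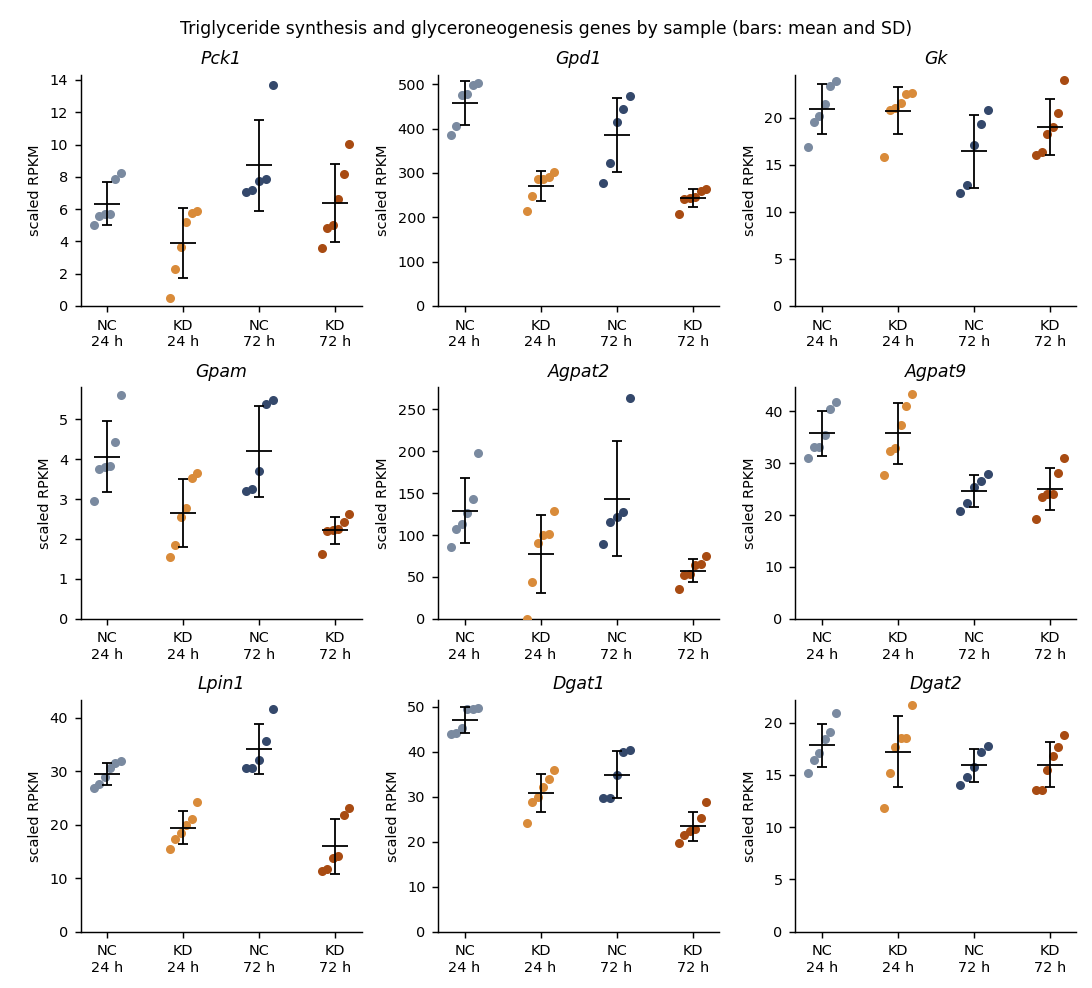
Scaled RPKM (linear axis from 0) of the 9 genes in each sample of the 4 groups, with black bars for the mean and SD; NC 72 h has 5 points because replicates 2 and 3 were averaged. KD points of Gpd1, Lpin1 and Dgat1 lie below all NC points at both times, whereas KD and NC points of Gk, Agpat9 and Dgat2 intermingle.

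Pck1 encodes the cytosolic carboxykinase of glyceroneogenesis and was the gene nearest to the target. At 24 h the 6 KD samples ranged from 0.485 to 5.90 scaled RPKM (median 4.44) and the 6 NC samples from 4.99 to 8.23 (median 5.70). The KD samples at 72 h ranged from 3.56 to 10.02 (median 5.81), and the NC samples measured 7.89, 7.19, 7.73, 13.7 and 7.07. The groups overlapped at both times. The mean was 3.89 ± 2.17 in KD and 6.34 ± 1.36 in NC at 24 h (SD, n = 6 and 6), and the log2 difference was -0.99 ± 0.46 (SE, 95% interval -1.98 to 0.00, limma adjusted p = 0.13). At 72 h the mean was 6.37 ± 2.40 in KD and 8.71 ± 2.80 in NC (SD, n = 6 and 5), and the log2 difference was -0.48 ± 0.26 (interval -1.04 to 0.08, limma adjusted p = 0.20). Neither passed the test, and the intervals reach from no difference to a level well below the control. The lowest sample, KD 24 h replicate 5, held 6 reads of Pck1, and without it the 24 h difference was -0.50 (limma adjusted p = 0.19). Without NC 72 h replicate 5, the highest, the 72 h difference was -0.31 (limma adjusted p = 0.43).

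Of the genes that supply glycerol 3-phosphate directly, Gpd1 was lower in KD and Gk did not pass the test. Gpd1, the cytosolic glycerol-3-phosphate dehydrogenase and a classical marker of adipocyte differentiation, was the most abundant of the 9 per length in the entries used, although other entries of Agpat2 stood above it. It ranged from 215 to 302 scaled RPKM in KD 24 h (median 286) and from 386 to 503 in NC 24 h (median 477). KD 72 h ranged from 207 to 264 (median 244), and NC measured 473, 415, 276, 323 and 445. All KD samples lay below all NC samples at each time. The log2 level of Gpd1 fell by 0.75 ± 0.11 at 24 h (SE; 271 ± 33.1 against 458 ± 49.2 scaled RPKM, SD, limma adjusted p = 0.00052). It fell by 0.64 ± 0.13 at 72 h (243 ± 19.9 against 386 ± 83.4, limma adjusted p = 0.0033). At each time the difference of the means exceeded the larger SD, although the NC 72 h samples spread widely, from 276 to 473.

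Gk, glycerol kinase, which lets a fat cell reuse the glycerol of lipolysis, ranged from 15.8 to 22.6 scaled RPKM in KD 24 h (median 21.3) and from 16.8 to 23.9 in NC 24 h (median 20.8). KD 72 h ranged from 16.01 to 24.0 (median 18.6), and NC 72 h measured 20.8, 19.4, 12.02, 12.8 and 17.1. The groups overlapped widely at both times. The log2 difference was 0.00 ± 0.13 at 24 h (interval -0.28 to 0.29, limma adjusted p = 0.99) and 0.23 ± 0.17 at 72 h (interval -0.12 to 0.59, limma adjusted p = 0.34). At 72 h the scaling mattered. On the RPKM as deposited the median of all entries was itself shifted by 0.25, and there Gk stood at 0.48 (limma adjusted p = 0.037), or 0.23 above that shift.

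The first acyl chain is added by glycerol-3-phosphate acyltransferases, of which Gpam encodes the mitochondrial enzyme GPAT1 and Agpat9 the microsomal enzyme GPAT3. Gpam, the least abundant of the 9 per length at 24 h in NC, ranged from 1.56 to 3.66 scaled RPKM in KD 24 h (median 2.66) and from 2.95 to 5.59 in NC 24 h (median 3.81). KD 72 h ranged from 1.62 to 2.63 (median 2.23), and NC measured 5.49, 5.37, 3.20, 3.25 and 3.70. The groups overlapped at 24 h and not at 72 h. The 24 h difference of -0.62 ± 0.24 did not pass the test (limma adjusted p = 0.076), and at 72 h Gpam fell by 0.86 ± 0.21 (2.22 ± 0.339 against 4.20 ± 1.14 scaled RPKM, limma adjusted p = 0.0097). The 24 h value was past the threshold in a fit of all 4 groups (-0.63, limma adjusted p = 0.031) and without KD 24 h replicate 4 (-0.72, adjusted p = 0.044). It was also past it in the larger of the 2 library sets described further on (-0.91, limma adjusted p = 0.044). In the smaller set it stood at -0.08 (adjusted p = 0.91).

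Agpat9 ranged from 27.7 to 43.4 scaled RPKM in KD 24 h (median 35.2) and from 31.0 to 41.8 in NC 24 h (median 34.3). KD 72 h ranged from 19.3 to 31.0 (median 24.0), and NC measured 26.7, 25.4, 20.8, 22.3 and 28.0. KD and NC overlapped at both times. The log2 difference was 0.01 ± 0.13 at 24 h (interval -0.28 to 0.29, limma adjusted p = 0.98) and 0.01 ± 0.13 at 72 h (interval -0.27 to 0.30, limma adjusted p = 0.95). At 72 h the interval of Gpam, -1.31 to -0.41, lay wholly below that of Agpat9. The difference between the 2 genes was not itself tested.

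Agpat2, the lysophosphatidate acyltransferase of adipocytes, was lower in KD at 72 h. In the entry used, NM_026212, KD 24 h ranged from 0 to 129 scaled RPKM (median 95.1) and NC 24 h from 86.0 to 198 (median 119.5). At 72 h KD ranged from 35.6 to 74.7 (median 58.9), and NC measured 128, 121, 89.7, 263 and 115. The groups overlapped at 24 h and were separate at 72 h, where Agpat2 fell by 1.24 ± 0.24 (57.6 ± 13.6 against 143 ± 68.5, SD, limma adjusted p = 0.0025). At 24 h the difference was -2.12 ± 1.35 (interval -4.99 to 0.75, limma adjusted p = 0.27). KD 24 h replicate 6 is listed at 0 in this entry, and without it the difference was -0.50 (limma adjusted p = 0.14). That library had the fewest reads, yet other Agpat2 entries measured 489 and 1044 scaled RPKM in it. The cause of the 0 was not tested. In a fit of all 4 groups, which shares the wide spread of KD 24 h, the 72 h difference was -1.25 and did not pass the test (adjusted p = 0.48).

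The choice of transcript entry mattered for Agpat2. NM_026212 is 837 bases long, a coding length, and averaged 98.1 RPKM as deposited, whereas the Ensembl entry ENSMUST00000028286, of 1489 bases, averaged 839. In ENSMUST00000028286 the KD 24 h samples ranged from 489 to 912 scaled RPKM and the NC 24 h samples from 1016 to 1263, without overlap. KD 24 h replicate 6, listed at 0 in NM_026212, measured 489 there. This entry fell by 0.61 ± 0.13 at 24 h (limma adjusted p = 0.0058) and by 1.03 ± 0.14 at 72 h (limma adjusted p = 0.00016). All 9 Agpat2 entries were tested, and 4 of them passed the test at 24 h and 9 at 72 h, all lower. Entries of a gene share reads and are not replicates.

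**Figure D2:**
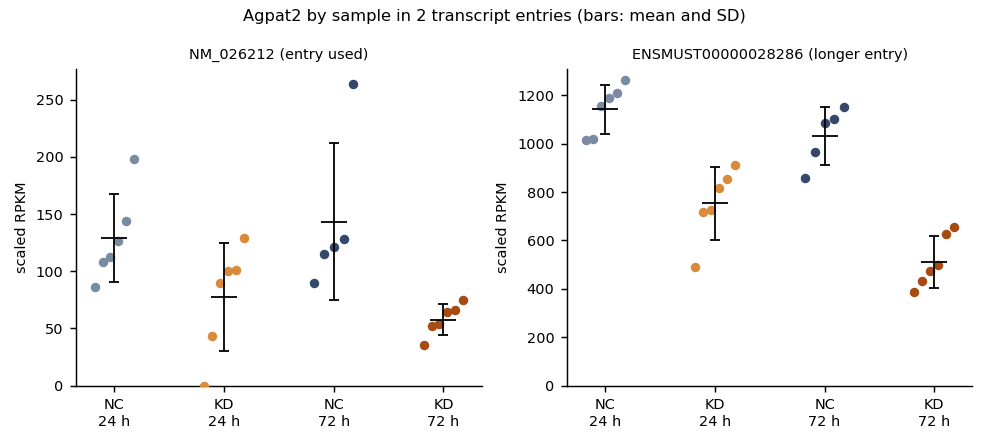
Scaled RPKM of Agpat2 by sample (linear axes from 0) in the entry used and in a longer Ensembl entry, with black bars for the mean and SD and 5 points for NC 72 h. In the longer entry the KD 24 h samples reach 912 and the NC 24 h samples start at 1016, whereas in the shorter entry a KD 24 h sample is listed at 0.

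Lpin1, the phosphatidate phosphatase that yields diacylglycerol and also acts as a coregulator of transcription, was lower in KD at both times. It ranged from 15.4 to 24.3 scaled RPKM in KD 24 h (median 19.2) and from 26.9 to 31.8 in NC 24 h (median 29.8). KD 72 h ranged from 11.3 to 23.03 (median 13.99), and NC measured 41.7, 30.7, 30.7, 32.2 and 35.7. No KD sample reached the lowest NC sample at either time. Lpin1 fell by 0.60 ± 0.13 at 24 h (19.4 ± 3.11 against 29.6 ± 2.07, SD, limma adjusted p = 0.0050). It fell by 1.14 ± 0.19 at 72 h (15.98 ± 5.15 against 34.2 ± 4.68, limma adjusted p = 0.00084), to 45.4% of NC. Replicates 5 and 6 of KD 72 h, at 23.03 and 21.9, stood above the other 4, which ranged from 11.3 to 14.2, and both belong to the smaller of the 2 library sets described further on. All 8 tested entries of Lpin1 passed the test as lower at each time.

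The last acyl chain can be added by either of 2 unrelated enzymes, of which Dgat1 was lower in KD and Dgat2 did not pass the test. Dgat1 ranged from 24.1 to 36.0 scaled RPKM in KD 24 h (median 31.1) and from 43.9 to 49.8 in NC 24 h (median 47.4). At 72 h KD ranged from 19.8 to 28.9 (median 22.6), and NC measured 39.9, 34.8, 29.7, 29.8 and 40.3. KD and NC were separate at both times, at 72 h by a gap of less than 1 scaled RPKM. Dgat1 fell by 0.60 ± 0.11 at 24 h (30.8 ± 4.22 against 47.0 ± 2.90, SD, limma adjusted p = 0.0027) and by 0.57 ± 0.13 at 72 h (23.4 ± 3.25 against 34.9 ± 5.19, limma adjusted p = 0.0062). On the RPKM as deposited the 72 h value was -0.32 and did not pass the test (adjusted p = 0.11).

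Dgat2, which in adipocytes acts at the lipid droplet and the endoplasmic reticulum, ranged from 11.8 to 21.6 scaled RPKM in KD 24 h (median 18.1) and from 15.2 to 20.9 in NC 24 h (median 17.7). At 72 h the KD samples ranged from 13.5 to 18.8 (median 16.1), and NC measured 17.2, 17.7, 14.1, 14.8 and 15.7. The groups overlapped at both times. The log2 difference was -0.05 ± 0.15 at 24 h (interval -0.38 to 0.27, limma adjusted p = 0.83) and 0.00 ± 0.13 at 72 h (interval -0.27 to 0.28, limma adjusted p = 0.99). The Dgat1 interval at 72 h was -0.84 to -0.29, just below that of Dgat2, and the difference between the genes was not itself tested.

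**Figure D3:**
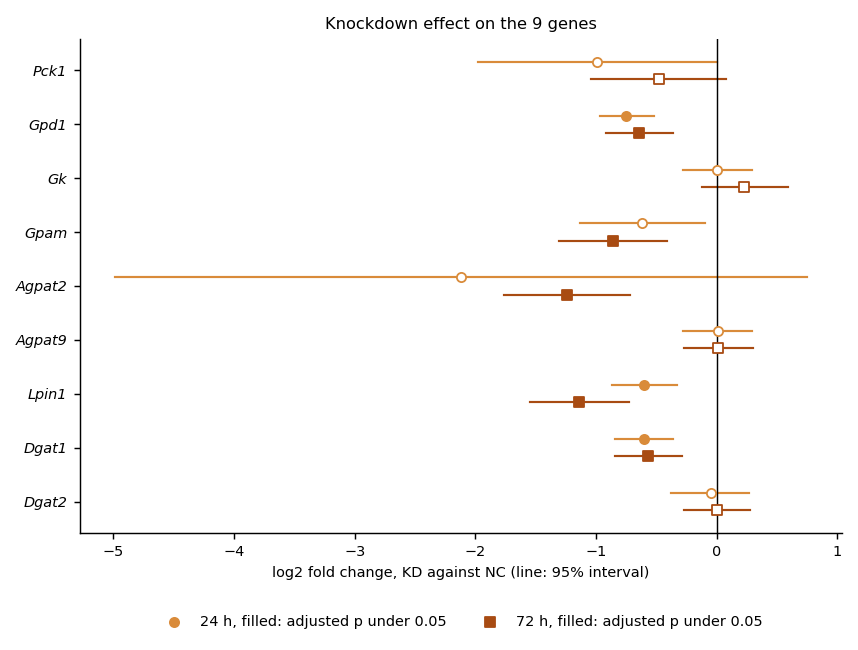
Log2 fold change of KD against NC (horizontal axis) with 95% intervals for the 9 genes at 24 h (circles) and 72 h (squares), filled where the limma adjusted p was under 0.05. Gpd1, Lpin1 and Dgat1 are filled at both times, Gpam and Agpat2 at 72 h, and the widest interval, from -4.99 to 0.75, is that of Agpat2 at 24 h.

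The knockdown effect was compared between the times by an interaction term. None of the 9 genes passed it, by limma on log2 RPKM or by voom on recovered reads, against 0.2% of 59403 entries in either direction, 0.126% higher and 0.0741% lower, and 1 gene, Lpin1, had an unadjusted p under 0.05. Lpin1 differed by -0.52 ± 0.23 between the times (SE, upper end of the interval -0.05, unadjusted p = 0.031, limma adjusted p = 0.37). The effects of Gpd1 and Dgat1 differed between the times by 0.11 ± 0.17 and 0.05 ± 0.17, and the widest interval was that of Agpat2, -2.33 to 4.12. A larger effect at 72 h was thus not shown for any of the 9 genes.

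The course without knockdown was read from NC 72 h against NC 24 h, which shares its samples with the knockdown comparisons. Agpat9 and Dgat1 were lower at 72 h, 2 of the 9 genes, against 4.49% of 52826 entries called lower, 4.63% called higher and 9.12% in either direction. Agpat9 fell by 0.53 ± 0.11 (24.6 ± 3.00 against 35.8 ± 4.34 scaled RPKM, limma adjusted p = 0.0074) and Dgat1 by 0.43 ± 0.10 (limma adjusted p = 0.015), and the samples of the 2 times did not overlap for either gene. The share of all tested entries without overlap between the times is not given here, so this only describes the 2 genes. The other 7 lay between -0.36 (Gk) and 0.44 (Pck1) and did not pass the test. The Agpat9 group means fell into an order by time, 35.8 in NC 24 h and 35.8 in KD 24 h above 25.0 in KD 72 h and 24.6 in NC 72 h. Neighbours in that order differed by more than the larger SD only between the times. For Gpd1, Gpam, Agpat2 and Lpin1 the order went by treatment, with both NC groups above both KD groups and with groups of the same treatment within the larger of their SDs. Dgat1 also had both NC groups above both KD groups, but KD 24 h was within the SD of NC 72 h. In each treatment its 72 h group was lower than its 24 h group by more than the larger SD. The neighbours in the order of Gk and of Dgat2 all lay within their spread. Pck1 was highest in NC 72 h and lowest in KD 24 h, with KD 72 h and NC 24 h level at 6.37 and 6.34.

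The 71 entries of the 9 genes were compared to see how far a value depended on the entry used. At 72 h every tested entry of Gpam (3 of 3), Agpat2 (9 of 9), Lpin1 (8 of 8) and Dgat1 (5 of 5) passed the test as lower, and 4 of 5 did for Gpd1. No entry of Pck1, Gk, Agpat9 or Dgat2 passed it at either time. At 24 h the same was true of 5 of 5 entries of Gpd1, 8 of 8 of Lpin1 and 5 of 5 of Dgat1, and 1 of 3 entries of Gpam passed. That entry, AK047295, fell by 0.92 ± 0.25 (limma adjusted p = 0.017). With the most abundant entry of each gene in place of the RefSeq entry, Agpat2 and Gpam were called at 24 h too, which gave 5 of 9 genes.

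**Figure D4:**
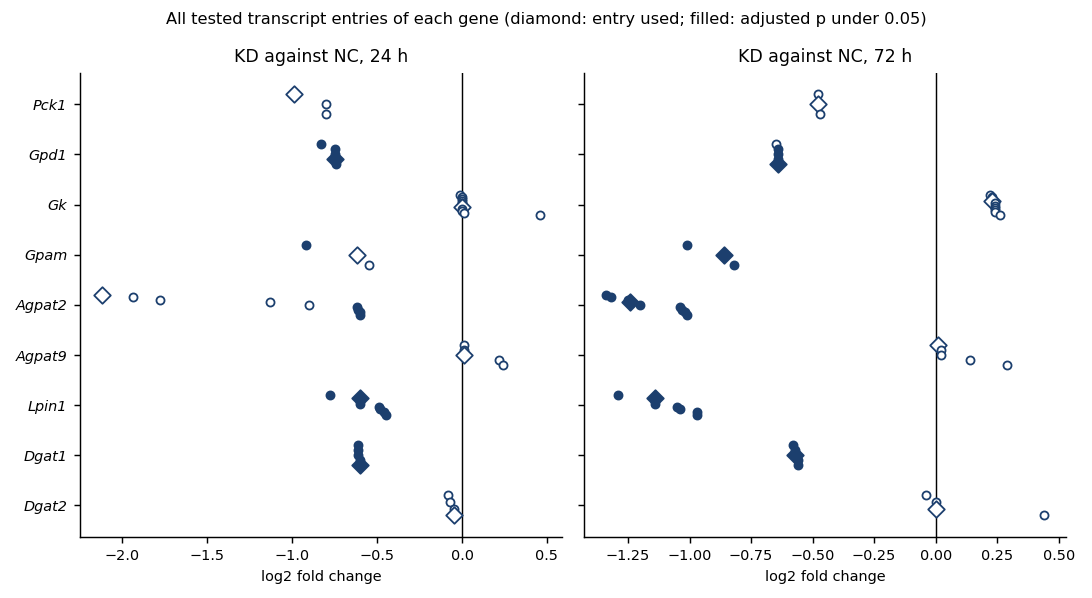
Log2 fold change of KD against NC (horizontal axis) for every tested transcript entry of the 9 genes at 24 h and 72 h, with a diamond for the entry used and filled symbols where the limma adjusted p was under 0.05. The Agpat2 entries spread from -2.12 to -0.60 at 24 h and from -1.34 to -1.01 at 72 h, whereas those of Dgat1 lie within 0.02 of each other at both times.

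Other genes of the pathway were taken from a list of 29. At 24 h, 24 of them were tested, 9 were lower in KD and 1 was higher, and the median log2 difference was -0.27. At 72 h, 26 were tested, 6 were lower and 1 was higher, with a median of -0.19. The medians of all entries were -0.01 and 0.01, and the background shares are those given for the 9 genes. This list too was chosen with earlier results of these data known, so its counts only describe it. On the RPKM as deposited, with its shift of 0.25 at 72 h, 2 of the list were lower and 3 higher at 72 h, where 5.7% of all entries were called lower and 24.2% higher.

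Among 8 genes that supply glycerol 3-phosphate and glycerol, 4 were lower at each time. Aqp7, the channel through which glycerol leaves and enters adipocytes, ranged from 10.04 to 36.4 scaled RPKM in KD 24 h and from 39.0 to 47.9 in NC 24 h, and from 12.6 to 22.4 and 29.3 to 33.5 at 72 h. Its groups were separate at both times, and it fell by 1.04 ± 0.25 at 24 h (limma adjusted p = 0.010) and by 0.85 ± 0.15 at 72 h (adjusted p = 0.0010). Pcx, pyruvate carboxylase, which starts glyceroneogenesis, fell by 0.62 ± 0.12 at 24 h (limma adjusted p = 0.0034) and by 0.70 ± 0.16 at 72 h (adjusted p = 0.0070). Mdh1, cytosolic malate dehydrogenase, fell by 0.35 ± 0.10 (limma adjusted p = 0.021) and by 0.60 ± 0.11 (adjusted p = 0.0015), and its 24 h call was lost without KD 24 h replicate 5 (-0.31, adjusted p = 0.052). Pck2, the mitochondrial carboxykinase, was lower at 24 h and stood at 0.10 ± 0.13 at 72 h. Gpd2, the mitochondrial glycerol-3-phosphate dehydrogenase, was lower at 72 h by 0.70 ± 0.19 (limma adjusted p = 0.016).

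Of 4 genes that activate fatty acids to their CoA esters, Acsl1 and Acsl4 were lower at 24 h and Acsl1 at 72 h. Acsl1, the main such enzyme of adipocytes, averaged 252 ± 57.7 scaled RPKM in KD 24 h and 355 ± 23.3 in NC 24 h, and 193 ± 30.4 and 297 ± 37.6 at 72 h (SD). It fell by 0.51 ± 0.13 (limma adjusted p = 0.013) and by 0.63 ± 0.12 (adjusted p = 0.0018). Acsl4, which prefers arachidonate, fell by 0.68 ± 0.17 at 24 h (limma adjusted p = 0.011) and stood at -0.20 ± 0.22 at 72 h.

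Of 9 further acyltransferases, 6 were tested at 24 h and 7 at 72 h. Agpat3, Agpat4 and Agpat5 were lower at 24 h, by 0.37 ± 0.09, 1.01 ± 0.22 and 0.56 ± 0.16 on the log2 scale (limma adjusted p = 0.014, 0.0063 and 0.021), and none of the 3 passed the test at 72 h. Agpat5 stood at the threshold without NC 24 h replicate 1 (-0.51, limma adjusted p = 0.050), and its 72 h value of -0.37 passed it without NC 72 h replicate 1 (-0.49, adjusted p = 0.027). Agpat6, which encodes the glycerol-3-phosphate acyltransferase GPAT4, was higher in KD at 24 h by 0.41 ± 0.12 (limma adjusted p = 0.026), from 12.02 to 15.9 scaled RPKM in NC and from 16.4 to 20.7 in KD, and this call was lost without KD 24 h replicate 1 or NC 24 h replicate 2, 3 or 4 (0.36 to 0.39, adjusted p = 0.057 to 0.063). Mogat1, which acylates monoacylglycerol, was too low for the test at 24 h and fell by 1.76 ± 0.41 at 72 h (2.13 ± 1.31 against 6.71 ± 2.35 scaled RPKM, limma adjusted p = 0.0071), with overlapping groups.

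Of 5 further phosphatidate phosphatases, Ppap2c was higher in KD at 72 h and no other passed the test. Ppap2c, now named Plpp2, a lipid phosphate phosphatase of the plasma membrane, ranged from 6.97 to 9.79 scaled RPKM in KD 72 h and from 2.84 to 5.92 in NC 72 h, and it rose by 0.96 ± 0.20 (limma adjusted p = 0.0044). At 24 h its difference was 0.91 ± 0.33 (adjusted p = 0.056), and it passed the test without KD 24 h replicate 3 or 4 (up to 1.07, adjusted p = 0.028 and 0.030). Lpin2, of the same family as Lpin1, stood at 0.46 ± 0.27 at 24 h and 0.53 ± 0.32 at 72 h and did not pass the test at either (limma adjusted p = 0.22 and 0.25). Of 3 genes of droplet formation at the endoplasmic reticulum, Bscl2 (seipin) and Fitm2 were tested and not called, and Fitm1 was too low.

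**Figure D5:**
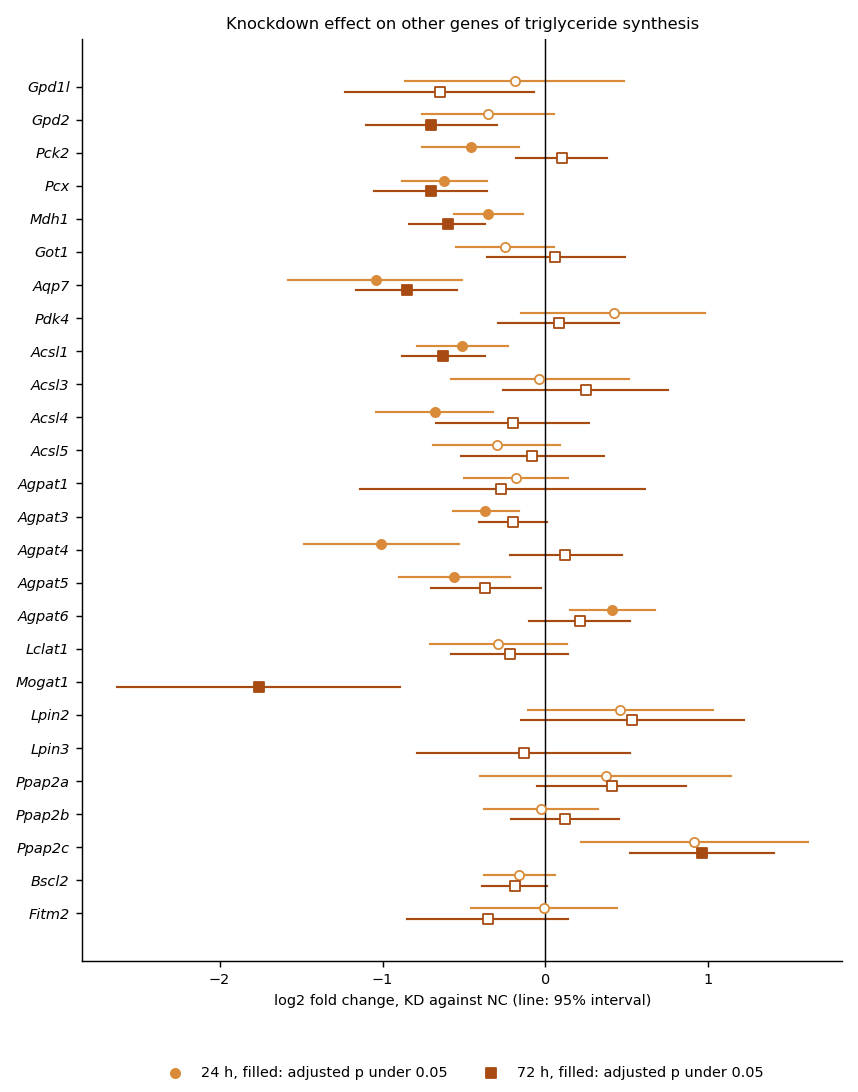
Log2 fold change of KD against NC (horizontal axis) with 95% intervals for the other tested genes of triglyceride synthesis at 24 h (circles) and 72 h (squares), filled where the limma adjusted p was under 0.05. Filled symbols lie left of 0 but for Agpat6 at 24 h (0.41) and Ppap2c at 72 h (0.96).

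Libraries also differed in a way the groups do not explain. Clustering of deviations from the group means split them into a larger set of 16 and a smaller set of 8, the latter with 2 libraries of every group. Within the larger set 4 of the 9 genes passed the test as lower at 24 h and 5 at 72 h, against 12.9% and 12.8% of all entries called lower there. Within the smaller set, with 2 samples a group, 1 did at 24 h (Gpd1, -0.41, limma adjusted p = 0.026), against 1.59% of entries. None of the 9 was called in that set at 72 h, where limma called 5762 of 56086 entries and 6.84% of entries were called lower. The 72 h log2 differences of Gpd1, Gpam, Lpin1 and Dgat1 were -0.25, -0.46, -0.48 and -0.22 in the smaller set (limma adjusted p = 0.10 to 0.49) and -0.89, -1.11, -1.48 and -0.77 in the larger set. Agpat2 stood at -1.30 (adjusted p = 0.079) and -1.18. At 24 h Gpam, Lpin1 and Dgat1 stood at -0.08, -0.30 and -0.47 in the smaller set (limma adjusted p = 0.91, 0.31 and 0.09). In the larger set Gpd1, Gpam, Lpin1 and Dgat1 stood at -0.93, -0.91, -0.77 and -0.69 at 24 h. Agpat2 stood at -0.04 in the smaller set and -3.19 in the larger at 24 h, and passed the test in neither. The larger set holds KD 24 h replicate 6, listed at 0 for Agpat2. The difference between the sets was not tested. With the set as a term in a fit of both sets together, 3 and 5 of the 9 genes were called as lower at 24 h and 72 h, against 14.1% and 14.4% of entries. The sets were drawn from these same values, so that fit is not an independent check.

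The genes whose pattern was most like that of Pck1 were sought among 6283 genes of at least 5 RPKM, over 23 samples, by Pearson's r of the log2 level. They were Tatdn3 (r = 0.83), Cbx6, Gmds and an Ensembl entry without a symbol, ENSMUST00000109627 (each 0.80), and Nrp1 (0.79). With group means taken out they were Gmds (0.88), Adam12 (0.80), Tspan14 (0.80), the entry AK030675 (0.79) and Tatdn3 (0.79). Of the other members above that level, Lpin1 stood nearest to Pck1 over all samples (0.47) and Agpat9 with group means taken out (0.62). The samples share depth, scaling and library set, and at 6 to 161 reads of Pck1 per library these values are descriptions.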

How the data were processed

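The deposited table gives RPKM, read numbers relative to transcript length and library size, for 168326 RefSeq, Ensembl and GenBank transcript entries in 24 libraries. The authors, by the labels and their methods, made it from barcoded oligo-dT libraries, in which tagmented cDNA yields 3′ end reads, aligned to NCBI reference sequences with the Genomatix suite. Version, strand handling and genome build were not given in the sources used here. Every column belonged to a library of the series.

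Library totals and entry lengths were recovered from the RPKM steps of 1 read, where 93.6% to 94.1% of low values per library were whole within 0.03 of a step. Recovered lengths equalled GENCODE M21 for 90.6% of 18475 Ensembl entries. In NC 72 h replicate 6, 19.8% of read numbers were odd, against 56.1% to 58.6% elsewhere, so its recovered total may be too high.

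The low-value filter asked for 10 reads, expressed at median depth, in a number of samples equal to the smaller group's n, plus 15 reads summed. The deposited RPKM were then scaled by a trimmed mean of log ratios (30% and 5% trimmed), and log2(scaled RPKM + 0.1) was fitted with limma 3.58.1 (lmFit, eBayes with trend, R 4.3.3) over all entries, two-sided, with Benjamini-Hochberg adjustment and a threshold of 0.05. The procedure was tested on simulated data for the 24 h comparison only. Those reads were drawn independently per entry with a fixed spread, without library sets or entries that share reads. How the procedure behaves with these features was not tested. Folds on this scale understate changes of low genes. The comparisons were KD against NC at either time, as in the study, the control groups across time, and the difference of the knockdown effects (an interaction term). Differential tests of the authors used read counts, which were not used here. The members and lists were chosen with earlier results of these data known. Named were the 9 members, at most 12 called genes of the pathway list by adjusted p (Pck2, Lpin2 and the droplet genes were added after their values were seen), the target with its neighbours and the 5 genes most like Pck1. Promoters were read from RefSeq and gene positions from GENCODE, with Python 3.11.15.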

Additional observations from a re-analysis of the deposited data

Results flagged for a closer look

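Of 36 gene and group combinations examined (9 genes in 4 groups), 3 held a sample far from the others of its group, and chance gives about 1 in 20. Pck1 measured 13.7 scaled RPKM in NC 72 h replicate 5, where the nearest other sample was at 7.89 and the lowest at 7.07. Agpat2 (NM_026212) measured 263 scaled RPKM in the same library, with the nearest at 128 and the lowest at 89.7. Gk measured 15.8 scaled RPKM in KD 24 h replicate 1, with the nearest at 20.8 and the highest at 22.6. The cause was not tested for any of the 3.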

How the results depend on the processing

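Counts of the 9 genes called at 24 h and 72 h (3 and 5) moved by more than 1.5 times under these settings only. With the entry of highest mean, 5 were called at 24 h. Within the smaller library set, 1 was called at 24 h and 0 at 72 h, and of the pathway list 1 and 4. Leaving out each replicate in turn gave 3 to 4 genes at 24 h and 5 at 72 h. Of the NC time calls (2), the larger set kept 0. Replicate numbers did not pair the samples: same-numbered libraries deviated together with mean r of -0.10, 0.04 and 0.07 in the 3 pairs of groups, and 1 library of each correlated best with its own number. With the replicate block, 3 and 5 of the 9 genes were called at 24 h and 72 h, 0 by the interaction and 1 over time in NC, and 6 of the pathway list at each time.

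Differences near 0 changed sign. At 24 h, Gk was -0.01 without the filter, in the fit of all 4 groups and with the entry of highest mean, 0.00 with median-of-ratios scaling, 1 entry per symbol and voom, and -0.13 in the larger set. Agpat9 was -0.01 without the filter and in the fit of all 4 groups and -0.06 in the smaller set, and Dgat2 was 0.00 on deposited RPKM. At 72 h, Dgat2 was 0.00 in the fit of all 4 groups and with RefSeq entries only, -0.04 with the entry of highest mean, -0.03 with the replicate block, -0.02 with the set as a term and with NC 72 h replicates 2 and 3 separate, and -0.09 in the smaller set. Acsl4 and Agpat3 were each 0.05 on deposited RPKM, Agpat3 0.05 in the smaller set, and in the larger set Agpat9 was -0.23, Agpat4 -0.01 and Acsl4 0.14. For the interaction, Agpat2 was -0.40 with the entry of highest mean, -0.03 by voom and -1.27 in the smaller set, and in the larger set Agpat9 was -0.26 and Dgat1 -0.09. Over time in NC, Agpat2 was -0.16 with the entry of highest mean and -0.21 in the larger set, and Gpam -0.22 in the smaller set. The cause was not tested.

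Leaving out each replicate in turn turned the sign of values within these ranges: at 24 h, Gk -0.06 to 0.08, Agpat9 -0.06 to 0.08 and Dgat2 -0.13 to 0.05. At 72 h they were -0.05 to 0.08 for Agpat9 and -0.05 to 0.05 for Dgat2. For the interaction they were -0.74 to 1.33 for Agpat2, where the lowest is without KD 24 h replicate 6, -0.05 to 0.09 for Agpat9, -0.03 to 0.10 for Dgat1 and -0.03 to 0.14 for Dgat2, and over time in NC -0.07 to 0.14 for Gpam and -0.15 to 0.25 for Agpat2. Of 797 other values of single genes under the alternatives, 714 kept direction and side of the threshold. Pck1 and Gpam, at 6 to 161 and 15 to 89 reads per library, are the members whose depth limits them most.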
